A study of Mus musculus with 56 samples.

Results

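Serpinb9, Serpinb9b and Serpinb8 are 3 mouse genes for intracellular protease inhibitors of the serpin family. They were picked by name because their transcripts were higher in reprogramming cells given a short hairpin RNA (shRNA) against Ctcf, so the size of that difference is given below as a description, without a test. All 3 were found among the 13451 genes tested in the table of sorted cells and among the 12935 genes tested in the day 10 overexpression table. Serpinb9 (ENSMUSG00000045827) lies at chr13:33003250-33017957 and Serpinb9b (ENSMUSG00000021403) at chr13:33027416-33041884, both on the plus strand of GRCm38, with starts 24.2 kb apart. Serpinb8 (ENSMUSG00000026315) lies at chr1:107590006-107610484 on the plus strand. Serpinb9 and Serpinb9b are close copies, so reads may have been split between them by the authors' counting, and their separate values are less certain than their joint behaviour.

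RNA was sequenced from mouse embryonic fibroblasts of the OG2 line, which carry an Oct4-GFP reporter, while they were driven towards pluripotency by OSKM, the factors Oct4, Sox2, Klf4 and c-Myc. In the sorted series a doxycycline-inducible lentivirus supplied OSKM, and every cell received either a control shRNA (named shLuci in the labels) or a Ctcf shRNA. Cells were taken unsorted at day 0, then sorted at days 3, 6 and 9 into a Thy1+ fraction that keeps a fibroblast surface marker, a double negative SSEA1-Thy1- fraction, and an SSEA1+ fraction that has gained an early pluripotency marker, and at day 12 into GFP+ cells with an active reporter. This gave 11 populations, each with 2 libraries per shRNA, 44 in all. A day 10 table holds OSKM cells with a control, with CTCF overexpression, or with CTCF overexpression plus Smarca5 shRNA, as 2 columns each. All groups carried OSKM, controls included, apart from 1 fibroblast (MEF) and 1 induced pluripotent stem cell (iPSC) library. The labels do not say whether the libraries of a group came from separate cultures, so the p-values measure only the spread between these libraries. Values are the authors' normalized scores, scaled so that each library of a table has about the same set of values.

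Serpins block proteases with an exposed reactive centre loop near the carboxyl end, which the protease cuts and is then trapped. Clade B serpins lack a classical secretion signal and act mainly inside cells. Serpinb9 inhibits granzyme B, the killing protease of cytotoxic lymphocytes, and is known for protecting immune cells and other cells from it. Serpinb9b belongs to a mouse expansion of the same gene and has been described in mouse as an inhibitor of granzyme M. Human SERPINB8 inhibits furin, a protease that cleaves proproteins. CTCF is a zinc finger protein that binds DNA and insulates neighbouring chromosome domains from each other.

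The coding end is shown because it holds the reactive centre loop, the part that sets which protease a serpin meets, and because it shows how far the copies can be told apart. Below are the last 180 coding bases of each annotated transcript in GRCm38. Capitals mark bases that differ from aligned Serpinb9 or have no aligned Serpinb9 base.
Serpinb9: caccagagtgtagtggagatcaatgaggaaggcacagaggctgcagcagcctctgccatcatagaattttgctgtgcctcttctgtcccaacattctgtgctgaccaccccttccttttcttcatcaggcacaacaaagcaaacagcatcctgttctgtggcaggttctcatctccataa
Serpinb9b: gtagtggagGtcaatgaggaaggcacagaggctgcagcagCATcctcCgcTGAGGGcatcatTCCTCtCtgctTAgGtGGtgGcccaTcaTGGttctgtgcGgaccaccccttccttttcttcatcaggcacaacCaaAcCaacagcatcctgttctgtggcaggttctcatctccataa
Serpinb8: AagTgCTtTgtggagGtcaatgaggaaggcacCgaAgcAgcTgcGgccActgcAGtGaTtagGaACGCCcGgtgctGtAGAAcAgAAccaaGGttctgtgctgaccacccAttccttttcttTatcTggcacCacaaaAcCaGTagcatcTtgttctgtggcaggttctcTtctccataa
Serpinb9b had 31 bases in capitals, inserted bases included, of which 11 fell in the first 60 bases, 17 in the middle 60 and 3 in the last 60. Serpinb8 had 43 in capitals, with 16, 18 and 9 in the same stretches. Over the whole coding sequence Serpinb9 and Serpinb9b were identical at 970 of 1122 aligned bases (86.5%), with a longest identical run of 62 bases. Of the 1102 overlapping stretches of 24 bases in Serpinb9, 131 also occur in Serpinb9b, and of the 1076 stretches of 50 bases 13 do. Serpinb8 was identical to Serpinb9 at 68.8% of aligned bases and to Serpinb9b at 67.7%, and it shared no stretch of 24 bases with either. Short reads can therefore match both genes of the pair on chromosome 13 in places, while Serpinb8 is distinct from both at that length.

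The 250 bases before the RefSeq transcription starts of the neighbouring copies (GRCm38.p6, plus strand) are shown because these genes moved together with Ctcf shRNA. They are chr13:33004291-33004540 for Serpinb9 and chr13:33027164-33027413 for Serpinb9b. Capitals mark runs of at least 8 identical bases in the alignment of the pair.
Serpinb9: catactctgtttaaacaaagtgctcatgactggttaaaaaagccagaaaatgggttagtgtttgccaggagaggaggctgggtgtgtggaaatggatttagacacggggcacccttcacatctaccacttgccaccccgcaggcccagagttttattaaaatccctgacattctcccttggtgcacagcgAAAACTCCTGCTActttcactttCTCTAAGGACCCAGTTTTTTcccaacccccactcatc
Serpinb9b: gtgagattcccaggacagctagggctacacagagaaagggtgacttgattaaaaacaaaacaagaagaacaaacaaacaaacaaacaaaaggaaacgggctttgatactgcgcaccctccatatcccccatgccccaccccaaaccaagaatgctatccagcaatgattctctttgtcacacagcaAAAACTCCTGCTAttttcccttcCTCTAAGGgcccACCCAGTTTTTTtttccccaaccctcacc
The promoters of Serpinb9 and Serpinb9b were identical at 154 of 226 aligned bases (68.1%), and the longest runs they share lie close to the start. The same alignment with the Serpinb8 promoter gave 62.4% for Serpinb9 and 61.8% for Serpinb9b, so 68.1% is not far above that of genes on different chromosomes. The longest identical run was 13 bases for the pair, and 6 and 8 with Serpinb8.

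With control shRNA, Serpinb9b was the most abundant of the 3 in the sorted table's day 0 libraries and lost most of its transcript on the way to GFP+ cells. At day 0 Serpinb9b scored 7912 and 8224, Serpinb9 scored 1450 and 1450, and Serpinb8 scored 338 and 376. Per kb of exonic sequence the mean levels at day 0 were 2408 for Serpinb9b, 415 for Serpinb9 and 74.5 for Serpinb8. In day 12 GFP+ cells Serpinb9b scored 295 and 252, Serpinb9 scored 102 and 80, and Serpinb8 scored 104 and 117. Every day 12 library was below both day 0 libraries of its gene, though the share of all genes separated in this way is not given. The fall on the log2 scale was -4.88 (SE 0.14) for Serpinb9b, -3.99 (SE 0.20) for Serpinb9 and -1.68 (SE 0.11) for Serpinb8, with limma adjusted p of 1.85e-21, 3.19e-16 and 1.5e-13. Among all genes 40.2% were called lower in this comparison, so 3 of 3 serpins called lower stands against a large background. Day 0 cells were unsorted and day 12 cells were sorted. In such bulk libraries fewer cells of a type that expresses a gene and less RNA per cell cannot be told apart.

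Within each day the serpins were higher in the control cells that kept Thy1 than in those that had gained SSEA1. At day 3 Serpinb9 scored 1204 and 1230 in Thy1+ cells, 592 and 712 in double negative cells, and 128 and 170 in SSEA1+ cells. Serpinb9b at day 3 scored 5420 and 5640, 1622 and 1634, and 394 and 284 in the same order of fractions. Serpinb8 scored 898 and 886, 826 and 791, and 476 and 478. The order of the 3 fractions was the same for each gene, and the libraries of different fractions did not overlap. The share of all genes without overlap is not given for these fractions, so this only describes the 3 genes. SSEA1+ cells were lower than Thy1+ cells by log2 differences of -3.04 (SE 0.20) for Serpinb9, -4.04 (SE 0.14) for Serpinb9b and -0.90 (SE 0.11) for Serpinb8 at day 3, with limma adjusted p of 4.38e-13, 5.57e-19 and 8.67e-08. All 3 were called lower there, as were 28.8% of all genes. At day 6 the differences were -3.38, -3.52 and -2.02 (background 33.8% called lower, limma adjusted p of 1.63e-14, 3.18e-18 and 4.06e-15). The day 6 scores of Serpinb9 were 1023 and 994 in Thy1+ cells, 364 and 343 in double negative cells, and 96 and 96 in SSEA1+ cells. Those of Serpinb9b were 2174 and 1960, 668 and 614, and 184 and 173. Serpinb8 scored 618 and 506, 262 and 310, and 122 and 154. Markers followed the gates: the summed score of 6 fibroblast markers was 248011 to 262515 in the day 6 Thy1+ control libraries and 6730 to 6789 in the SSEA1+ ones.

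By day 9 the gap between the fractions had narrowed in control cells, most of all for Serpinb9b. Serpinb9b scored 1090 and 1138 in Thy1+ cells, 972 and 936 in double negative cells and 571 and 754 in SSEA1+ cells. Serpinb9 scored 1023 and 1242, 480 and 542, and 214 and 386. Serpinb8 scored 436 and 386, 324 and 335, and 234 and 228. The SSEA1+ against Thy1+ differences were -0.76 (SE 0.14), -1.97 (SE 0.20) and -0.83 (SE 0.11) for Serpinb9b, Serpinb9 and Serpinb8, with limma adjusted p of 3.07e-05, 2.17e-09 and 3.25e-07, against 30.0% of genes called lower. Tested as a difference of differences, day 9 less day 6 was 2.76 for Serpinb9b (limma adjusted p 2.07e-11), 1.41 for Serpinb9 (0.000317) and 1.19 for Serpinb8 (1.18e-06), and 16.7% of genes were called in this direction. Day 6 less day 3 was -1.12 for Serpinb8 (limma adjusted p 2.57e-06), 0.52 for Serpinb9b (0.0393) and -0.34 for Serpinb9 (0.354), with 19.0% of genes called lower and 21.0% higher. The Serpinb9b call rested on single libraries: without the second day 3 SSEA1+ library, for example, it was 0.28 (0.29). The SSEA1+ fraction itself gained transcript between these days, by 1.87 for Serpinb9b, 1.57 for Serpinb9 and 0.75 for Serpinb8, all called higher by limma (adjusted p 1.54e-11, 2.88e-07 and 3.87e-06; background 22.5% higher). The 6 fibroblast markers rose in the same fraction, from sums of 6730 to 6789 at day 6 to 45202 to 46352 at day 9, and their part in the serpin change was not tested.

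The steps from day to day are given gene by gene. Serpinb8 was higher in day 3 Thy1+ cells than at day 0 by 1.32 (SE 0.11, limma adjusted p 2.02e-10), and higher in day 3 SSEA1+ cells by 0.42 (SE 0.11, 0.00156). Serpinb9b was lower in both, by -0.54 (SE 0.14, 0.00267) and -4.59 (SE 0.14, 1.06e-20). Serpinb9 was -3.29 lower in SSEA1+ cells (SE 0.20, limma adjusted p 3.25e-14), and in Thy1+ cells its difference of -0.25 (95% interval -0.66 to 0.16, 0.328) did not pass, though it did when only the libraries compared were fitted (limma adjusted p 0.0356). The backgrounds were 22.3% of genes higher and 20.1% lower for Thy1+ cells, and 39.7% higher and 32.5% lower for SSEA1+ cells. In Thy1+ cells Serpinb9b then went on falling, by -1.42 from day 3 to 6 and by -0.89 from day 6 to 9 (limma adjusted p 7.28e-09 and 3e-05). Serpinb9 did not pass in either step, with -0.27 (95% interval -0.68 to 0.14) and 0.16 (-0.25 to 0.57). Fitted on the libraries compared alone, the first of these steps passed (limma adjusted p 0.0279). Serpinb8 fell by -0.67 and -0.45 (limma adjusted p 2.1e-05 and 0.0041), the second of which did not pass without the first library of day 6 Thy1+ control cells (-0.30, 0.128) or without the second of day 9 Thy1+ control cells (-0.36, 0.0759), nor on the libraries compared alone (0.0585). Background calls for these steps were 25.2% and 13.1% lower. In SSEA1+ cells all 3 were lower at day 6 than at day 3 (background 25.0%), Serpinb8 by -1.79, Serpinb9b by -0.90 and Serpinb9 by -0.61 (limma adjusted p 4.96e-13, 5.83e-06 and 0.0123). The Serpinb9 value was -0.41 (0.172) without the second library of day 3 SSEA1+ control cells, and it missed the threshold also without either day 6 library (0.0507 and 0.0501). From day 9 SSEA1+ to day 12 GFP+ cells they fell again, by -1.66, -1.26 and -1.06 for Serpinb9, Serpinb9b and Serpinb8 (limma adjusted p 7.79e-08, 2.1e-08 and 8.74e-09; background 33.6% lower).

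The double negative fraction lay between the other fractions. Against Thy1+ cells all 3 serpins were called lower at day 6, by -1.51 for Serpinb9, -1.69 for Serpinb9b and -0.97 for Serpinb8 (limma adjusted p 2.51e-07, 6.36e-11 and 2.53e-08; background 29.3% lower). Against SSEA1+ cells they were higher at day 6 by 1.87, 1.84 and 1.05 (limma adjusted p 1.41e-08, 2.26e-11 and 1.35e-08; background 21.6% higher). At day 3 Serpinb9 and Serpinb9b were lower than in Thy1+ cells by -0.91 and -1.76 (limma adjusted p 0.00116 and 7.71e-10; background 14.4% lower), and all 3 were higher than in SSEA1+ cells, by 2.13, 2.28 and 0.76 (1.36e-09, 2.73e-13 and 3.34e-06; background 20.9% higher). At day 3 Serpinb8 in double negative cells differed from Thy1+ cells by -0.14 (95% interval -0.37 to 0.09, limma adjusted p 0.378), which did not pass. At day 9 Serpinb9b differed by -0.22 (-0.51 to 0.07, 0.185), which did not pass either, but passed on the libraries compared alone (limma adjusted p 0.0345). Serpinb9 was lower than in Thy1+ cells at day 9 by -1.14 (limma adjusted p 2.73e-05; background 24.4% lower). All 3 were higher at day 9 than in SSEA1+ cells (background 15.5% higher), Serpinb8 by 0.51 (limma adjusted p 0.00105), Serpinb9 by 0.83 (0.0026) and Serpinb9b by 0.54 (0.005). For the last pair, without the first day 9 SSEA1+ control library the values were 0.40 (0.18) and 0.34 (0.156), and on the libraries compared alone neither passed (limma adjusted p 0.0943 and 0.0517). The Serpinb8 difference from Thy1+ cells at day 9, -0.32 (limma adjusted p 0.019), was -0.29 (0.0914) without the first double negative library and -0.23 (0.177) without the first Thy1+ library.

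**Figure D1:**
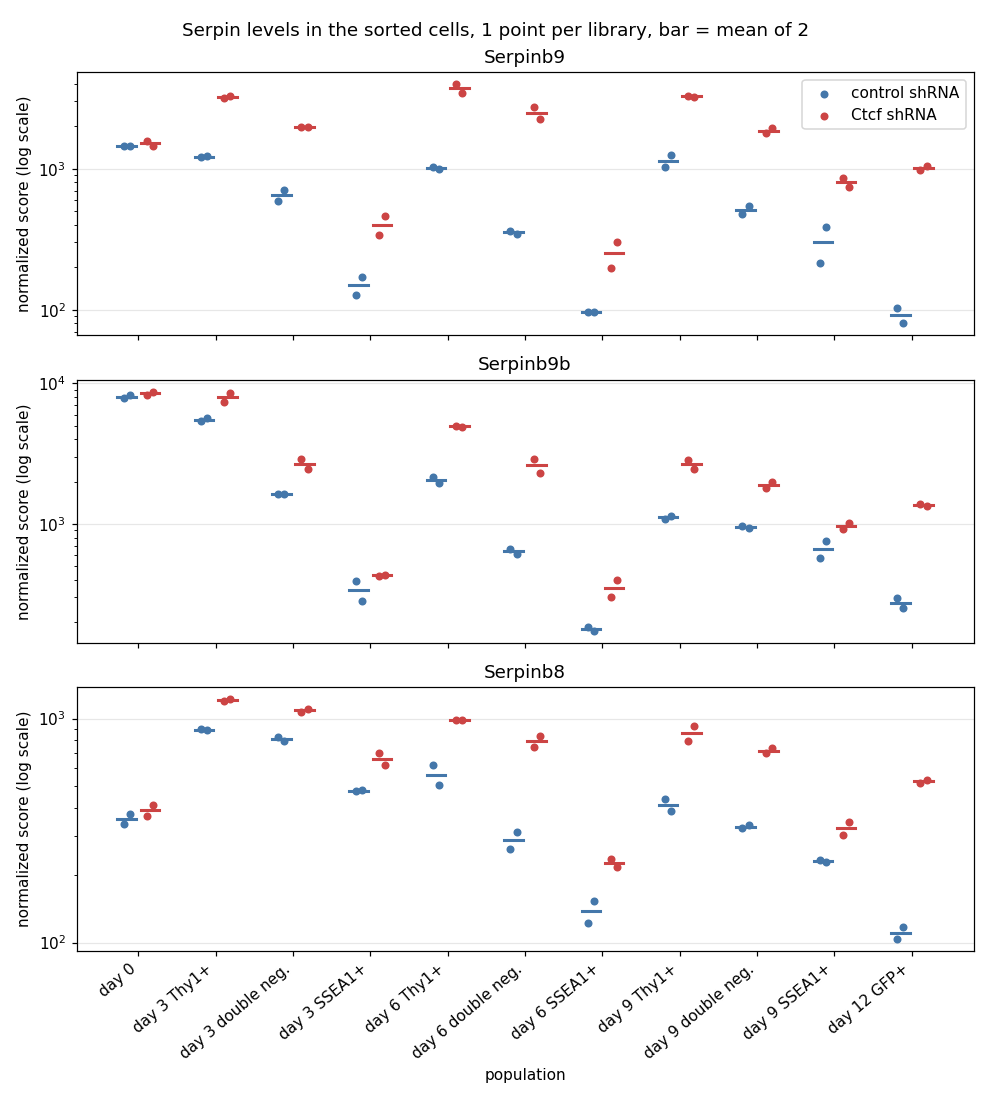
Normalized scores (log scale) of Serpinb9, Serpinb9b and Serpinb8 in the 11 populations, with control shRNA in blue and Ctcf shRNA in red. Points are libraries and bars the mean of 2. At day 0 the colours lie together or nearly so, and at day 12 the Serpinb9 libraries sit at 80 and 102 against 984 and 1053.

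The shRNA lowered Ctcf itself in every population. Ctcf scored 790 and 830 with control shRNA and 520 and 616 with Ctcf shRNA at day 0, and 2381 and 2441 against 698 and 674 at day 12. The log2 difference was -0.52 at day 0, the smallest of the 11, and -1.81 at day 12, the largest, with a mean of -1.11. Fitted on the day 0 libraries alone the day 0 value missed the threshold (adjusted p 0.534), as did that of day 3 Thy1+ cells on its own libraries (0.153).

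Serpinb9 was higher with Ctcf shRNA in 10 of 11 populations with no overlap between libraries, by a mean log2 difference of 1.71. At day 0 it scored 1586 and 1445 with Ctcf shRNA against 1450 and 1450, which overlap, a difference of 0.06 whose sign turned without the first Ctcf shRNA library (-0.0050). Of all genes, the share whose libraries were higher without overlap was 20.3% at day 0 and 36.1% at day 12. It was 19.8%, 24.5% and 24.5% in Thy1+, double negative and SSEA1+ cells at day 3, 31.7%, 33.0% and 28.3% at day 6, then 30.8%, 33.7% and 27.9% at day 9. In Thy1+ cells it scored 3152 and 3274 at day 3, 4003 and 3462 at day 6, then 3274 and 3249 at day 9, where the control means were 1217, 1009 and 1133. These are the highest Serpinb9 scores in the sorted table, above those of day 0 fibroblasts. In double negative cells it scored 1992 and 1967, 2726 and 2251, and 1780 and 1950 over the same days, and the day 6 difference of 2.81 (6.99-fold) was the largest before day 12. SSEA1+ cells had the lowest scores, 338 and 459 at day 3, 198 and 304 at day 6, then 858 and 744 at day 9, with differences of 1.41, 1.34 and 1.47. In day 12 GFP+ cells Serpinb9 scored 984 and 1053 against 102 and 80, a difference of 3.48 (11.2-fold).

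Serpinb9b, the neighbour and copy, showed smaller differences, with a mean of 1.00, and its libraries did not overlap in any of the 11 populations. At day 0 it scored 8324 and 8766 with Ctcf shRNA, just above the control scores of 7912 and 8224, a difference of 0.08 that was between 0.045 and 0.12 with 1 library left out. Thy1+ cells scored 7408 and 8620 at day 3, 5022 and 4866 at day 6, then 2865 and 2468 at day 9, so Serpinb9b still fell over the days with Ctcf shRNA, to above 2 times the control mean of 1114 at day 9. Double negative cells scored 2909 and 2474, 2909 and 2324, and 1795 and 1998. The differences in double negative cells were 0.72 at day 3, 2.02 at day 6 and 0.99 at day 9. In SSEA1+ cells the scores were 426 and 434, 304 and 400, and 914 and 1010, with differences of 0.36, 0.96 and 0.55. Leaving out 1 library moved the first of these between 0.13 and 0.60 and the third between 0.35 and 0.75. The day 12 scores were 1390 and 1340 against 295 and 252, a difference of 2.32 (4.99-fold).

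Serpinb8, on another chromosome, had a mean difference of 0.85, and its libraries did not overlap in 10 of 11 populations. Its day 0 scores of 366 and 413 overlapped the control scores of 338 and 376, and their difference of 0.12 was between 0.038 and 0.21 with 1 library left out. Thy1+ cells scored 1196 and 1220 at day 3, 988 and 990 at day 6, then 795 and 927 at day 9, with differences of 0.44, 0.82 and 1.06. Double negative cells scored 1072 and 1108, 746 and 836, and 702 and 736, with differences of 0.43, 1.47 and 1.12. SSEA1+ cells scored 704 and 618, 235 and 218, and 302 and 344, with differences of 0.47, 0.72 and 0.48. In day 12 GFP+ cells it scored 518 and 530 against 104 and 117, a difference of 2.24 (4.72-fold). All 3 serpins thus had their largest difference in GFP+ cells and their second largest in day 6 double negative cells, the populations where Ctcf also differed most. Other populations did not keep this order. Ctcf differed by -1.27 in day 9 SSEA1+ cells and by -0.76 in day 3 Thy1+ cells. Serpinb9b differed there by 0.55 and 0.53, and Serpinb8 by 0.48 and 0.44. A relation between these sizes was not tested.

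**Figure D2:**
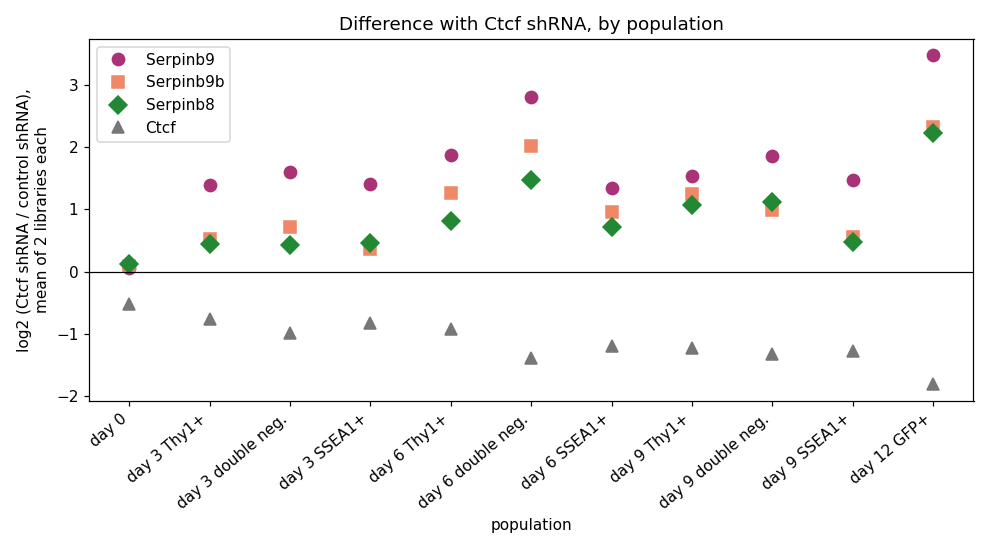
Log2 ratio of Ctcf shRNA over control shRNA, from the means of log2 values of 2 libraries each, for the 3 serpins and for Ctcf in the 11 populations. The serpins start near 0 at day 0 and reach 3.48, 2.32 and 2.24 in day 12 GFP+ cells, while Ctcf lies below 0 in each population.

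Cell markers moved with the serpins in some populations and not in others. At day 12 the summed score of the 6 fibroblast markers was 17526 to 17575 with control shRNA and 52044 to 52745 with Ctcf shRNA, and all 6 were called higher (background 24.6% higher and 24.7% lower). The 8 pluripotency markers summed to 38117 to 38710 with control shRNA and 21717 to 21746 with Ctcf shRNA, with 1 called lower and none higher. Each of the 8 was nonetheless lower in both Ctcf shRNA libraries than in both control libraries. Tdgf1, for example, scored 3492 to 3639 against 7197 to 7382. The share of all genes lower in this way is not given. The fit takes 1 spread per gene from all 22 groups, and these markers scored at most 7 in day 0 control cells. A missed call here therefore does not mean an unchanged marker. In day 6 double negative cells the fibroblast sum was 50979 to 55026 with control shRNA against 105719 to 107080 with Ctcf shRNA, and again all 6 were called higher (background 20.2% higher and 21.9% lower). The pluripotency sum there was 704 to 730 against 307 to 320, with 5 of 8 called lower and none higher. The trophoblast sum was 3945 to 5549 against 12313 to 17828, with 3 of 10 called higher and 2 lower. Nearly all of that sum was Prl2c2, a prolactin family gene, at 3776 to 5394 against 12112 to 17612. The part of these differences in the serpin values was not tested. In day 6 Thy1+ cells the fibroblast sum was lower with Ctcf shRNA, 184154 to 189538 against 248011 to 262515, while Serpinb9 was 3.69-fold, Serpinb9b 2.39-fold and Serpinb8 1.77-fold higher. In day 9 SSEA1+ cells it was also lower, 19530 to 21007 against 45202 to 46352, while the serpins were 2.77-fold, 1.46-fold and 1.39-fold higher.

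Several Serpinb9 relatives are known from trophoblast, and both immune cells and trophoblast can express this family. At day 12 the 10 trophoblast markers in the table summed to 3069 to 3217 with control shRNA and 11010 to 11298 with Ctcf shRNA, 5 called higher and none lower (background 24.6% and 24.7%), and their part was not tested. Prl2c2 alone scored 1282 to 1433 against 6900 to 7149, most of the rise in that sum. The placental marker Tpbpa scored 442 to 506 against 884 to 941 there, and Krt7, a keratin of trophoblast and other epithelia, 264 to 308 against 1130 to 1152. In day 6 Thy1+ cells the sum was 17901 to 23524 against 34507 to 36476, nearly all of it Prl2c2, a prolactin family gene also known from fibroblasts. In those cells Tpbpa was at 0 in both groups, while Krt7 scored 64 to 78 against 152 to 162 and Ascl2, a trophoblast transcription factor, 8 to 12 against 20 in both libraries. Plac1 went the other way, 5 to 7 against 0 to 2, and Gata3 scored 66 to 84 against 62 to 75. Of the 10 markers 2 were called higher there and 1 lower, where 1936 of 13451 genes were called in either direction. Of the 10 macrophage markers 8 are in the table, and their sum at day 12 was 2114 to 2203 with control shRNA and 1715 to 1851 with Ctcf shRNA. At day 0, where the serpins differed least, the macrophage sum was 6993 to 8433 against 10191 to 12626, with 0 of 8 called. In day 6 double negative cells the sums overlapped, 1646 to 1670 against 1586 to 1770. There 3 were called higher and 1 lower (background 20.2% and 21.9%), with a median log2 difference of 0.91. In day 6 Thy1+ cells the sum was 2289 to 2395 against 1932 to 2252, with 2 called higher and 1 lower and a median of 0.35. The part of the macrophage markers was not tested. Of the 8 cytotoxic lymphocyte markers the table holds Klrd1 alone. Klrd1 scored 0 to 5 in the day 12 libraries, 173 to 365 with control shRNA and 136 to 214 with Ctcf shRNA at day 0, and 0 against 50 to 68 in day 9 Thy1+ cells. Its part in the day 9 Thy1+ serpin values was not tested.

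The genes around Serpinb9 and Serpinb9b were read from the same fit, where the shRNA contrast can be tested because they are not among the chosen 3. Over the mean of 11 populations, 26.2% of all genes were called higher and 25.8% lower, so a single call says little, and the sizes are given. Serpinb6b, 38.0 kb before Serpinb9, was higher by 0.50 (SE 0.05, limma adjusted p 1.54e-09) on average and by 1.76 (7.38e-10) at day 12. Serpinb9c, 156 kb after it, was higher by 0.90 (SE 0.18, 0.000146) and by 2.74 (0.00048) at day 12, where its scores were 143 to 156 against 21 to 22. Serpinb9d, at 190 kb, was higher by 0.74 (SE 0.22, limma adjusted p 0.00601) and 2.35 (0.00936). Serpinb9e, at 246 kb, rose by 0.95 (SE 0.27, 0.00396) on average, and its day 12 value of 1.67 did not pass (0.118). Its day 12 scores were 2180 to 2276 against 686 to 710. Serpinb9f gave 0.47 (0.26) and 1.91 (0.159) by limma, neither of which passed, with day 12 scores of 718 to 817 against 156 to 264. On the far side Serpinb1a, related to the inhibitor of neutrophil elastase, gave 0.23 (limma adjusted p 0.0353) and 0.59 (0.102). Wrnip1, a DNA repair ATPase 201 kb before Serpinb9 and no serpin, gave 0.01 (0.883), and was lower at day 12 by -0.37 (0.00384). Of the other entries, D930007J09Rik next to Wrnip1 gave -0.05 (limma adjusted p 0.504) and was lower at day 12 by -0.79 (0.00255), while Gm47662 gave -0.50 (0.57) and 0.40 (0.896), neither of which passed. Near Serpinb8, Serpinb2, an inhibitor of urokinase, gave 0.18 (limma adjusted p 0.436) over the populations and 2.45 (0.00199) at day 12. Serpinb9c to Serpinb9g are near copies of one another, so their separate values are uncertain. Serpinb9c, Serpinb9d and Serpinb9f also scored near 0 in some populations, which makes their mean differences less certain still. Serpinb9e was low too, at 3 to 16 in day 6 Thy1+ control cells. The fit takes 1 spread per gene from all 22 groups, so low scores elsewhere also enter the day 12 p-values. Gm36099 overlaps Serpinb9b on the opposite strand, and the labels do not say whether counting used strand.

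**Figure D3:**
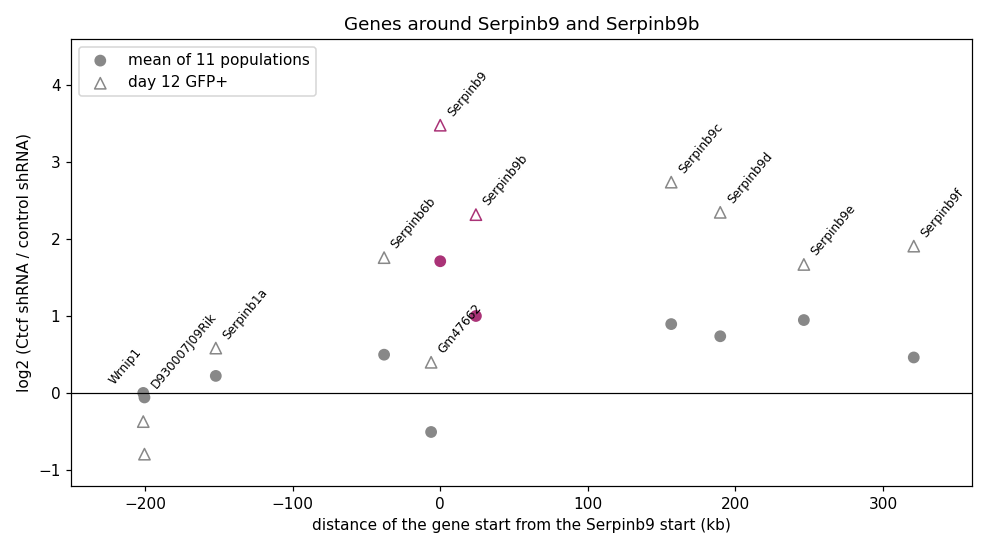
Log2 ratio of Ctcf shRNA over control shRNA against the distance of each gene's start from the Serpinb9 start (kb), for annotated genes of the neighbourhood that are in the table. Filled circles are means over 11 populations and open triangles day 12 GFP+ cells; Serpinb9 and Serpinb9b are purple. Serpinb9 is highest in both, at 1.71 and 3.48, and Wrnip1 lies near 0 on average.

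Across the family, 7 of the 11 other clade B serpins tested (of 24 listed) were called higher over the mean of 11 populations and 0 lower (background 26.2% higher and 25.8% lower), with a median of 0.47 against -0.0044 for all genes. The largest were Serpinb9e at 0.95, Serpinb9g at 0.90, Serpinb9c at 0.90 and Serpinb9d at 0.74. Some of these means rest partly on scores near 0. In day 6 Thy1+ cells Serpinb9c scored 0 against 3 to 4 with Ctcf shRNA, and Serpinb9d 0 against 0 to 3. At day 12 the count was 5 higher and 0 lower of 11 (background 24.6% higher and 24.7% lower), with a median of 1.71 against -0.07. The count depended on the population. In day 3 Thy1+, double negative and SSEA1+ cells 0 of 11 were called, with medians of 0.25, 0.06 and 0, where 541, 657 and 912 of all genes were called. In day 6 double negative cells 5 were called higher and 0 lower (background 20.2% and 21.9%). Of the 11 tested serpins of other clades (30 listed), 4 were called higher and 1 lower on average, against the same 26.2% and 25.8%, with a median of 0.05. Among them were Serpina3g at 0.37, Serping1, the C1 inhibitor, at 0.35 and Serpinh1, a collagen chaperone, at 0.12, with Serpine2, a thrombin and urokinase inhibitor, lower at -0.16. At day 12, 7 of these 11 were higher and 0 lower (background 24.6% and 24.7%), among them Serpina3g at 2.19, Serpinf1 at 1.85 and Serping1 at 1.46.

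The proteases that serpins of these clades meet were measured too. Of 22 listed, 9 were tested, and 5 were called higher and 1 lower over the mean (background 26.2% and 25.8%), with a median of 0.24. Ctsl and Ctsb, lysosomal cathepsins, were higher by 0.41 and 0.31, and Casp8, an apoptosis initiator, by 0.27. Furin was higher by 0.15 (limma adjusted p 0.000155) over the mean and by 0.81 (1.76e-07) at day 12. The day 12 count was 6 higher and 1 lower (background 24.6% and 24.7%), with Plau at 1.70 and Plat at 1.41, the plasminogen activators, in front. Among 15 tested interferon and NF-kB genes, signals known to induce Serpinb9 in immune cells, 8 were higher and 0 lower on average (background 26.2% and 25.8%), with a median of 0.12. Ifit2, an interferon target, was higher by 0.63, H2-D1 and B2m of class I antigen presentation by 0.38 and 0.27, and Irf7, an interferon regulator, by 0.29. At day 12, 11 of 15 were higher and 0 lower (background 24.6% and 24.7%), with a median of 0.87 and values of 1.52 for Ifit2 and 1.32 for Tnfaip3, an NF-kB target and inhibitor. Other populations differed. In day 6 double negative cells 8 were higher and 2 lower (background 20.2% and 21.9%). In day 6 Thy1+ cells 2 were higher and 3 lower, with a median of -0.13, where 1936 of 13451 genes were called. In day 3 Thy1+ and double negative cells 0 of 15 were called, where 541 and 657 of all genes were. The part of these genes in the serpin values was not tested.

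In control cells the family did not follow the chosen genes from day 0 to day 12. Of the 11 other clade B serpins 7 were called higher at day 12 and 3 lower (background 40.1% and 40.2%). The 3 lower ones were Serpinb2 at -6.48, Serpinb6b at -3.38 and Serpinb6a at -2.56 (limma adjusted p 2.82e-10, 7.68e-17 and 6.57e-15), which like Serpinb9 and Serpinb9b were expressed in day 0 fibroblasts. Serpinb9f, Serpinb6c, Serpinb9g and Serpinb9c rose by 5.01, 3.91, 3.25 and 3.20 from scores of at most 32 at day 0. The 2 directions meet within the Serpinb9 cluster: Serpinb9c to Serpinb9g were higher in GFP+ cells than at day 0, and Serpinb9 and Serpinb9b lower, while with Ctcf shRNA the day 12 values of all these genes were above control, Serpinb9e, Serpinb9f and Serpinb9g without passing the threshold.

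The genes with the most similar pattern over the 22 groups were not serpins. By Pearson correlation of log2 group means, Serpinb9 was closest to Glmp (0.96), Tinagl1 (0.95) and Chp1 (0.94). Serpinb9b was closest to Gvin1 (0.98), Prss23 (0.97) and Vps35 (0.97), and Serpinb8 to Ctsd (0.94), Rab7b (0.93) and Tmbim1 (0.93). Among the 3, Serpinb9 correlated with Serpinb9b at 0.88 and with Serpinb8 at 0.81, and Serpinb9b with Serpinb8 at 0.68. The points share libraries and cell fractions, and these values describe likeness only. Ctsd, cathepsin D of lysosomes, scored 5880 in day 12 control cells and 15787 with Ctcf shRNA, and Gvin1, an interferon-inducible GTPase, 578 and 3526.

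At day 10, raising CTCF was not accompanied by a detectable change of the serpins. Ctcf scored 1262 and 1234 in control columns and 5110 and 6132 with CTCF overexpression, a log2 difference of 2.16. The control columns differ from each other much less than other pairs do, with a median SD of 0.022 on the log2 scale against 0.125 and 0.105, and were counted as 1 sample. With 2 residual degrees of freedom only 0.0618% of genes were called in this comparison, all higher, and Ctcf itself did not pass (limma adjusted p 0.217; 0.0191 with the control columns as 2 samples). Serpinb9 scored 454 and 442 with CTCF overexpression against 500 and 502, a difference of -0.16 (95% interval -0.52 to 0.19, limma adjusted p 0.963). Serpinb9b scored 474 and 536 against 584 and 612, a difference of -0.25 (-0.65 to 0.15, 0.908). Both genes had overexpression columns below the control columns, and neither passed. How many of all genes had columns apart in this way is not given. Serpinb8 scored 527 and 906 against 810 and 860, which overlap, with a difference of -0.27 (-1.40 to 0.86, limma adjusted p 0.976). Without the first overexpression column the Serpinb8 difference was 0.12, and leaving out 1 column in turn took it from -0.66 to 0.12. Adding an shRNA against Smarca5, a chromatin remodelling ATPase, gave 446 and 483 for Serpinb9, 530 and 491 for Serpinb9b and 616 and 893 for Serpinb8. Compared with overexpression alone the differences were 0.05, 0.02 and 0.10, each with limma adjusted p of 1, where 0.0773% of genes were called, and each changed sign with 1 column or another left out. Against control they were -0.11, -0.23 and -0.17, again each at 1, where 0.101% were called, and that of Serpinb8 ranged from -0.44 to 0.10 with 1 column left out.

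**Figure D4:**
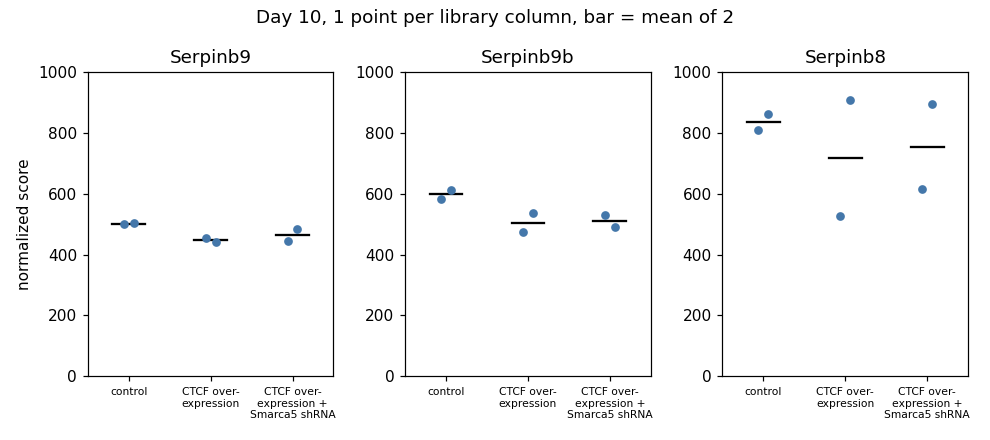
Normalized scores (linear axis from 0) of the 3 serpins at day 10 in control, CTCF overexpression, and CTCF overexpression with Smarca5 shRNA. Points are library columns and bars the mean of 2. The Serpinb9 columns span 442 to 502 and the Serpinb8 columns 527 to 906.

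The authors' deposited table of a day 10 Ctcf shRNA comparison has no header, and its 2 condition means were told apart here by Ctcf alone, the mean with less Ctcf being taken as the shRNA condition. The sign of the Ctcf difference in the authors' deposited table, -0.34, was thus set by this choice, and its size was below that of any sorted population. The directions below rest on the same choice. The authors' deposited table lists Serpinb9 at 134 in the condition with more Ctcf and 170 in that with less, with p 0.293. It lists Serpinb9b at 884 and 732, so lower with less Ctcf by -0.27, with p 0.0228. It lists Serpinb8 at 721 and 759, with p 0.687. Of the genes in the authors' deposited table, 11.7% have p below 0.05, and the adjustment of that p is not stated. The labels give no sort for these cells, and the table has means only, so no spread can be given. In the authors' deposited table of day 10 CTCF overexpression, the condition with less Ctcf had 140 against 86.1 for Serpinb9, 578 against 449 for Serpinb9b and 936 against 769 for Serpinb8, with p of 0.28, 0.403 and 0.696, where 2.35% of genes have p below 0.05. The series lists only 2 control and 2 CTCF overexpression samples at day 10. These means are therefore probably from the libraries described above, and are not counted as a second experiment. In the control columns above the mean scores were 501 for Serpinb9, 598 for Serpinb9b and 835 for Serpinb8. The Serpinb9 level thus differed most between the 2 sources, and the cause was not tested.

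The end points of reprogramming, 1 MEF and 1 iPSC library with no replicate, were counted separately on mm9. Serpinb9 had 760 reads of 16593659 in MEF and 8 of 9912018 in iPSC, a depth-scaled ratio of 56.7 (95% exact interval 28.7 to 132, counting error only). Serpinb9b had 581 and 60 reads, a ratio of 5.78 (4.43 to 7.68). Serpinb8 had 124 and 11 reads, a ratio of 6.73 (3.64 to 13.8). Serpinb9 had more reads than Serpinb9b in the MEF library, the reverse of their order at day 0 in the sorted table, which was scaled and counted separately. All 3 serpins were more abundant in the fibroblast library, in the same direction as day 0 against day 12 in the sorted control cells. Ctcf went the other way, with 1138 reads in MEF and 1898 in iPSC, a ratio of 0.358.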

How the data were processed

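Per the submitters' processing notes, reads were handled with Trim Galore, FastQC and RSEM, without versions, on mm10 (GRCm38) for 54 samples and mm9 for 2. The score in the sorted and overexpression tables is a whole-number value that the authors normalized by a method the sources used here do not name. At 11836 of 14270 ranks (sorted table) and 11069 of 13868 (overexpression table) all libraries held the same value within 1, so depth is not known and a change shared by most genes cannot be seen. The MEF and iPSC counts were deposited unscaled. The authors' deposited comparison tables have no header; their columns are score means, log2 ratios and p-values computed by the authors, identified here from their arithmetic. Of 56 samples, 52 have a column; the 4 day 10 shRNA samples appear only in those means.

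Genes that reached a score of 10 in 2 or more libraries were modelled on the log2(score + 1) scale by limma 3.58.1 under R 4.3.3, with an intensity trend and each group's own mean: 44 libraries with 22 residual degrees of freedom, and 5 day 10 samples with 2. Fold changes are on that scale. Calls are Benjamini-Hochberg adjusted p below 0.05 over all genes. Repeat types (819 and 933 entries) were left out. Ctcf, the serpins, their neighbours within 300 kb, the 4 largest called genes per list and the 3 most similar genes per serpin are named, and a few others were added with their values in view; 2 list members that the rule covers are not reported by name here. The serpins and lists were chosen with earlier results of these data known. Alternatives were another pseudocount, filter and normalization, a replicate block, the compared libraries only, and leaving out each library. The fit was tested on simulated data. Promoters come from RefSeq (GRCm38.p6), coding sequences from the GENCODE annotation; alignments used Biopython 1.88.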

Additional observations from a re-analysis of the deposited data

Results flagged for a closer look

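Between days the gap of SSEA1+ against Thy1+ control cells differed for each of the serpins by a test of the difference itself (limma, adjusted over all genes; 2 libraries per group). Day 9 less day 6, it was 1.41 for Serpinb9, 2.76 for Serpinb9b and 1.19 for Serpinb8, which passed without any single library. Day 6 less day 3, it was -1.12 for Serpinb8 (adjusted p 2.57e-06) and 0.52 for Serpinb9b (0.0393), where 19.0% of genes were called lower and 21.0% higher. The Serpinb9b value did not pass without the first (0.55, 0.0599) or second (0.49, 0.101) day 3 Thy1+ library, the second day 6 Thy1+ library (0.44, 0.131), the second day 3 SSEA1+ library (0.28, 0.29), or the first (0.47, 0.106) or second (0.56, 0.0557) day 6 SSEA1+ library. For Serpinb9 it was -0.34 (0.354), which did not pass.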

How the results depend on the processing

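Of 1269 values recomputed for 105 serpin results, 23 changed a call or moved, over 10 results: 19 missed the threshold and 3 passed it newly. No value that had passed the threshold changed sign. Of the values that had not passed or were not tested, leaving out 1 library turned the sign of the day 0 Serpinb9 difference with Ctcf shRNA (-0.0050 to 0.13), and at day 10 of Serpinb8 with CTCF overexpression (-0.66 to 0.12), of Serpinb8 with Smarca5 shRNA against control (-0.44 to 0.10), and of Serpinb9 (-0.0063 to 0.11), Serpinb9b (-0.071 to 0.11) and Serpinb8 (-0.29 to 0.49) with Smarca5 shRNA against overexpression. Fitting only the libraries compared moved 7 serpin calls in control cells. It left Serpinb9b at day 9, SSEA1+ against double negative, at an adjusted p of 0.0517, Serpinb9 there at 0.0943, Serpinb8 at day 9 against day 6 in Thy1+ cells at 0.0585 and the Serpinb9b difference of differences at 0.0798. It made Serpinb9 pass in day 3 Thy1+ cells against day 0 (0.0356) and at day 6 against day 3 in Thy1+ cells (0.0279), and Serpinb9b in day 9 double negative against Thy1+ cells (0.0345). The Serpinb9 ratio of MEF to iPSC was 4.69 on the log2 scale with a pseudocount of 1 on the depth-scaled counts. The cause was not tested.

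Counts over all genes depended more on the setting. With only the compared libraries, Ctcf shRNA called 3 genes at day 0, 0 in day 3 Thy1+, 201 in day 3 double negative, 59 in day 3 SSEA1+, 1105 in day 6 SSEA1+, 969 in day 9 Thy1+ and 600 in day 9 SSEA1+ cells, against 898, 541, 657, 912, 2980, 2641 and 1861. Leaving out 1 library gave 227 to 2985 at day 0, 223 to 405 in day 3 Thy1+, 285 to 324 in day 3 double negative, 456 to 577 in day 3 SSEA1+, 958 to 1091 in day 6 Thy1+, 1787 to 2714 in day 6 SSEA1+, 1572 to 2263 in day 9 Thy1+, 2192 to 2618 in day 9 double negative and 1135 to 1262 in day 9 SSEA1+ cells. In control cells it gave 2461 to 2755 for day 3 double negative against Thy1+ and 2023 to 2224 for day 9 against day 6 Thy1+.

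At day 10 CTCF overexpression called 8 genes, and 1 with pseudocount 8, 15 with quantile normalization, 141 with the control columns as 2 samples, and 5 to 40 leaving out 1 library. Smarca5 shRNA against overexpression called 10, 0 with quantile normalization and 0 to 33 leaving out 1 library; against control it called 13, 1 with pseudocount 8, 74 with the control columns as 2 samples and 0 to 24 leaving out 1 library. With replicate number as a block the day 10 counts were 2, 0 and 2. Same-numbered libraries of the sorted table deviated together in 17 of 231 group pairs (r over 0.1, median 0.014). This gave little sign of pairing by number, but it cannot show that the libraries are unpaired. The block changed no serpin call.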
